A study of Mus musculus with 18 samples.

Results

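The 10 genes described here encode the enzymes that make and degrade polyamines and the proteins that govern ornithine decarboxylase: Odc1, Amd1, Srm, Sms and Arg2 (synthesis and ornithine supply), Oaz1, Oaz2 and Azin1 (antizymes and antizyme inhibitor), and Sat1 and Smox (catabolism). They were taken by symbol from a list of polyamine genes, and all 10 listed genes were found among the 11243 protein-coding genes of the count table. The study asked how lipopolysaccharide (LPS) and the kinase mTOR change the transcriptome and the translatome of macrophages. RAW264.7, a mouse macrophage cell line, received vehicle (DMSO, the control), LPS (500 ng/mL, made from Salmonella enterica of serotype minnesota) for 6 h, or the same stimulation begun 15 min after adding 100 nM torin1, an mTOR inhibitor. None of the libraries analysed here had torin1 without LPS, so an effect of torin1 could be seen only on top of LPS. Each treatment was made in 3 experiments, and every lysate was sequenced both as total mRNA and as mRNA associated with heavy polysomes, which makes 18 libraries.

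The libraries held 27800983 to 47725557 counted reads. All 8 macrophage markers looked for (Adgre1, Csf1r, Cd68, Lyz2, Itgam, Ptprc, Fcgr1 and Cd14) were counted. Their summed level was 11265 to 21606 normalized CPM per library (a gene's counts scaled to a common library total). None of the 5 fibroblast, 4 T cell, 4 B cell and 4 epithelial markers was among the counted genes. The authors dropped any gene that lacked reads in some library, so these absences do not show that other cell types were missing. Of 4 genes used to check the response to LPS, Tnf and Ptgs2 were counted, with a summed level of 285 to 9244 normalized CPM per library. Nos2 and Il6 were not counted, which under the same filter does not show that they failed to respond. Values per library are given as CPM scaled by TMM factors over the 18 libraries, which centre the typical gene at no change. Fold changes of total or of polysome-associated mRNA use TMM factors computed within the 9 libraries of that RNA type.

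Polyamines (putrescine, spermidine and spermine) are small organic cations that bind RNA and are needed for growth and protein synthesis. Ornithine decarboxylase (Odc1) makes putrescine from ornithine, and spermidine synthase (Srm) and spermine synthase (Sms) then add aminopropyl groups that S-adenosylmethionine decarboxylase (Amd1) supplies. The pathway is held in check by its own products: antizymes, whose synthesis needs a ribosomal frameshift that polyamines promote, bind ornithine decarboxylase and send it to the proteasome, and translation of Amd1 is restrained by a short upstream open reading frame whose peptide stalls ribosomes when polyamines are abundant.

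The elements behind this feedback are shown because the comparison of total with polysome-associated mRNA bears on the transcripts that carry them. They were read from the GENCODE annotation of GRCm38, and capitals mark the start and stop codons of the upstream frame in Amd1, and in the antizymes the codon at which the reading frame shifts together with the stop codon that ends the first frame.
Amd1 upstream open reading frame: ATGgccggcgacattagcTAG
Oaz1 frameshift site: cctcggtggtgcTCCTGAtgtccctca
Oaz2 frameshift site: cctctgtggtgcTCCTGAtgcccctca
The Amd1 frame spans 6 codons, begins at base 12 of the transcript, and lies at chr10:40302155-40302175 on the minus strand, in the 5′ UTR. The Oaz1 site lies in an exon at chr10:80828280-80828306 on the plus strand, after 68 codons of the first frame, and 159 codons follow in the shifted frame. The Oaz2 site lies in an exon at chr9:65686257-65686283 on the plus strand, after 32 codons of the first frame, with 157 codons in the shifted frame. A full-length antizyme is thus made only where ribosomes pass these stops. In the principal annotated transcripts, Odc1 had 2 ATG triplets ahead of the start codon, Amd1 1, Azin1 3, Sms 4 and Sat1 2, while Oaz1, Oaz2, Srm, Smox and Arg2 had 0.

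Levels per length, in plain CPM per kilobase of exons, covered about 2 orders of magnitude in control cells. In total mRNA of control cells Srm (106.1 ± 8.0, SD, n = 3) and Odc1 (90.1 ± 8.5) were highest, and their ranges over the experiments overlapped. Oaz1 (54.3), Azin1 (44.9), Sat1 (34.3), Amd1 (24.8), Sms (20.5), Smox (11.9), Oaz2 (5.04) and Arg2 (1.02) followed in that order, each with a range clear of the next. The length used covers all annotated exons of a gene. It exceeded the principal transcript in Oaz1 (2558 against 1045 bases) and Sat1 (2774 against 1162) but not in Arg2 (1428 in both). The order between genes thus depends on the length used. Among the 10734 genes with an annotated length, Odc1 ranked 427th in the total mRNA of control cells. Its rank was 31st with LPS, at 747 CPM per kilobase, and 32nd with LPS and torin1, at 749. In polysome-associated mRNA its rank went from 428th in control cells to 27th with LPS and 22nd with LPS and torin1. Sat1 moved to the second place among the 10 genes in total mRNA with LPS, although its range (78.6 to 119.5) overlapped that of Srm (62.8 to 90.7).

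**Figure D1:**
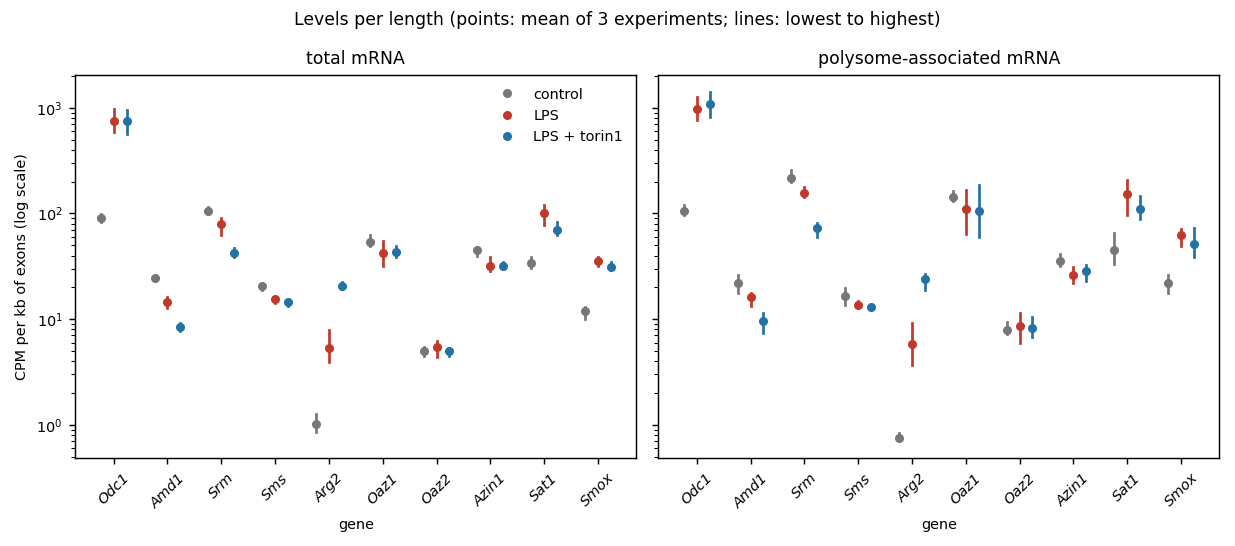
Levels of the 10 polyamine genes per length, in CPM per kilobase of exons on a log axis, in total (left) and polysome-associated mRNA (right); points are means of 3 experiments and lines run from the lowest to the highest. Odc1 stood at 90.1 in total mRNA of control cells and at 747 with LPS, and Arg2 was the lowest gene in control cells at 1.02.

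LPS raised Odc1 and Arg2, which act at the head of the pathway, and also Sat1 and Smox, which act at its end, while Srm and Sms in between did not pass the test. In total mRNA 5 of the 10 genes were called higher (edgeR, FDR of at most 0.25) against 32.2% of all genes, and 1 was called lower against 34.3%. In polysome-associated mRNA 5 were higher against 26.4% of all genes and 0 were lower against 28.7%. The median log2 change of the 10 genes was 0.23 in total and 0.27 in polysome-associated mRNA, beside −0.02 and −0.03 over all genes. With shares this large over the whole table, the counts are read as a description. In such bulk libraries fewer cells of a kind and less RNA per cell cannot be told apart.

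Odc1, the rate-limiting enzyme of polyamine synthesis, stood at 239, 294 and 258 CPM in total mRNA of control cells in experiments 1 to 3, and at 2283, 3626 and 2530 with LPS. In polysome-associated mRNA it was at 292, 347 and 301 in control cells and at 3001, 4721 and 3279 with LPS. The groups did not come near each other in either RNA type, and experiment 2 was the highest in each group. The change was 3.41 ± 0.24 (log2, SE) in total mRNA (edgeR, adjusted p = 3.49e-06) and 3.55 ± 0.26 in polysome-associated mRNA (adjusted p = 9.21e-06), which is 10.7-fold and 11.7-fold.

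Arg2, the mitochondrial arginase that releases ornithine from arginine, was barely counted in control cells. Its total mRNA was at 1.13, 1.57 and 1.06 CPM (36 to 69 reads) in control cells and at 12.96, 6.25 and 6.25 with LPS. In polysome-associated mRNA it was at 0.887, 1.02 and 0.868 in control cells and at 14.8, 5.74 and 7.13 with LPS. The groups were apart in both RNA types, with experiment 1 high among the LPS libraries. The change was 2.74 ± 0.30 in total (edgeR, adjusted p = 5.45e-05) and 3.31 ± 0.35 in polysome-associated mRNA (adjusted p = 6.98e-05). Arg2 overlaps Vti1b, which lies on the other strand, and no source used here states that the counting used strand, so reads of the overlap are uncertain. Arg1, the cytosolic arginase, was not among the counted genes.

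Amd1 behaved differently from Odc1. Its total mRNA was at 76.0, 78.2 and 72.0 CPM in control cells and at 66.2, 50.00 and 56.4 with LPS, so that all 3 LPS libraries were below all 3 controls. The change was −0.39 ± 0.11 (edgeR, adjusted p = 0.0157). In polysome-associated mRNA the values overlapped (55.1, 77.6 and 69.8 in control cells, 70.4, 51.5 and 68.8 with LPS), and the change of −0.09 ± 0.20 did not pass the test (adjusted p = 0.775). Amd1 has 5 annotated pseudogenes and the near-identical copy Amd2, so its counts may be shared with them. Amd2 was itself among the counted genes, and its values were not examined here.

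The aminopropyl transferases gave no call with LPS. Srm was at 155, 137 and 144 CPM in total mRNA of control cells and at 115, 148 and 156 with LPS, and its change was −0.06 ± 0.13 in total and −0.13 ± 0.17 in polysome-associated mRNA (edgeR, adjusted p = 0.733 and 0.601). Sms was at 111.3, 109.3 and 97.1 in control cells and at 111.8, 106.6 and 92.0 with LPS, with a change of −0.03 ± 0.11 in total and 0.08 ± 0.15 in polysome-associated mRNA (adjusted p = 0.819 and 0.708). The ranges of both genes overlapped between the groups in both RNA types. Without experiment 2 the polysome-associated Srm was called lower (−0.29, adjusted p = 0.243).

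Of the regulators of ornithine decarboxylase, only Oaz2 was called. Oaz1, the major antizyme, was at 134.98, 108.5 and 114 CPM in total mRNA of control cells and at 94.0, 155 and 108.0 with LPS (log2 change −0.00 ± 0.18, edgeR, adjusted p = 0.998). In polysome-associated mRNA Oaz1 was at 365, 286 and 292 in control cells and at 290, 468 and 178 with LPS, a wide spread in which experiment 2 went up and the others down (−0.00 ± 0.44, adjusted p = 0.995). Leaving out experiment 2 gave a change of −0.50 in polysome-associated mRNA (adjusted p = 0.115) and −0.30 in total mRNA (adjusted p = 0.129), both called. Oaz2, a less abundant antizyme, was at 13.1, 14.3 and 11.5 in total mRNA of control cells and at 21.4, 18.3 and 14.1 with LPS. It was higher with LPS in each of the 3 experiments although the ranges overlapped slightly, with a change of 0.47 ± 0.16 in total (adjusted p = 0.0364) and 0.46 ± 0.25 in polysome-associated mRNA (adjusted p = 0.182). The second of these calls was lost without experiment 1 (adjusted p = 0.517). Azin1, the antizyme inhibitor, a relative of the enzyme without its activity that binds antizyme in its place, changed by −0.11 ± 0.15 in total and −0.10 ± 0.19 in polysome-associated mRNA (adjusted p = 0.571 and 0.726), with overlapping ranges in both. Without experiment 1 its total mRNA was called lower (−0.26, adjusted p = 0.140).

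Both catabolic genes rose. Sat1, the acetyltransferase that marks spermidine and spermine for export or oxidation, was at 78.9, 93.8 and 72.6 CPM in total mRNA of control cells and at 329, 366 and 235 with LPS. In polysome-associated mRNA it went from 81.6, 152 and 92.3 to 466, 631 and 296. Every LPS library was above every control library, and the changes were 1.92 ± 0.19 (edgeR, adjusted p = 2.43e-05) and 2.10 ± 0.33 (adjusted p = 0.000853). Smox, the oxidase that converts spermine back to spermidine, was at 42.6, 33.7 and 43.4 in total mRNA of control cells and at 142, 166 and 150 with LPS. Its groups were likewise apart, with a change of 1.93 ± 0.13 in total (adjusted p = 2.84e-06) and 1.88 ± 0.28 in polysome-associated mRNA (adjusted p = 0.000587).

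**Figure D2:**
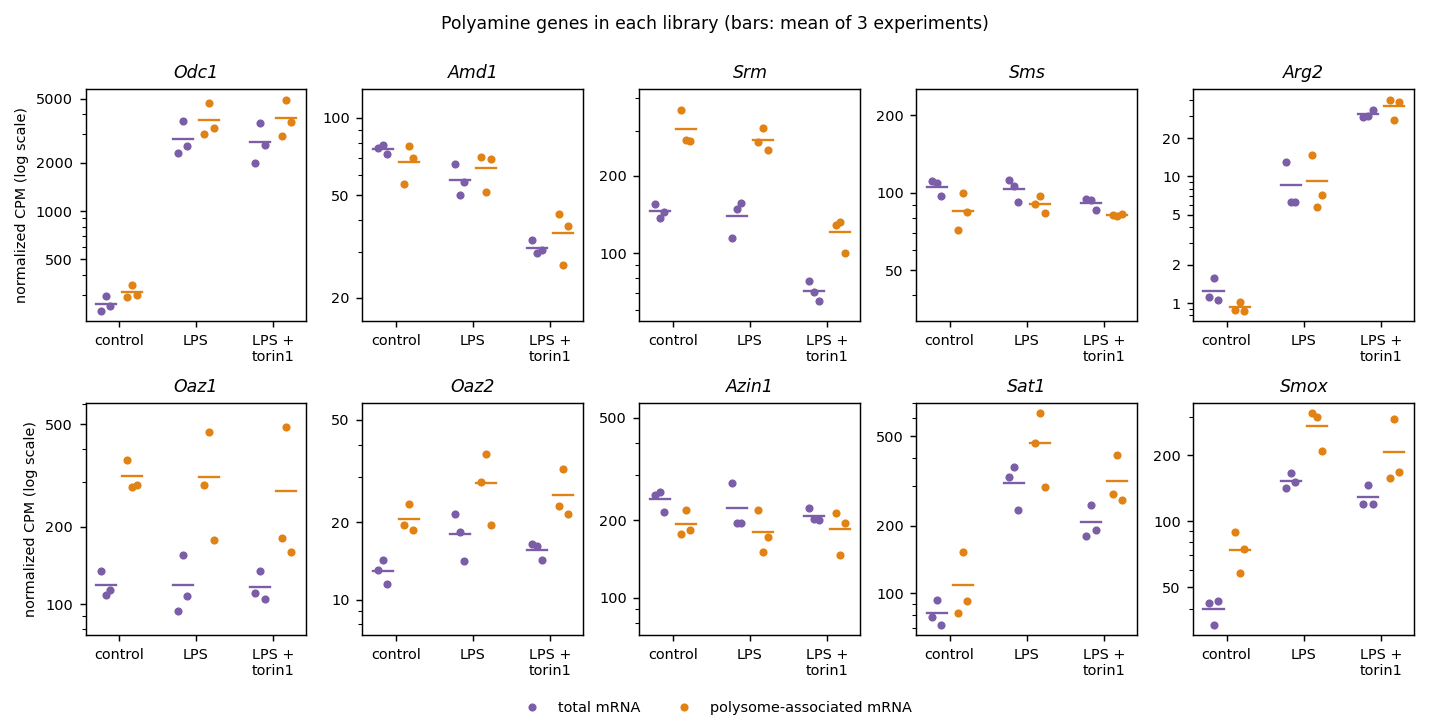
Normalized CPM (log axis, its range set per panel) of the 10 genes in each of the 18 libraries by treatment, in total (purple) and polysome-associated mRNA (orange); points are libraries and bars are means of 3 experiments. Odc1, Arg2, Sat1 and Smox were higher in every LPS library than in every control library, Amd1 and Srm were lower with torin1 than with LPS alone, and the polysome-associated Oaz1 of experiment 2 was at 468 and 489 with LPS and with LPS and torin1 while the other libraries of these groups lay between 159 and 290.

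The direction of the smaller changes with LPS rested on the scaling. With plain library totals the median log2 change of all genes was −0.38 in both RNA types, and of the genes called higher or lower, 19.8% were higher in total and 20.1% in polysome-associated mRNA, against 48.4% and 47.9% with TMM. On that scale the total mRNA of Azin1 (−0.48), Srm (−0.42), Sms (−0.40) and Oaz1 (−0.37) was called lower, each close to the median of all genes, and Oaz2 (0.10) was not called. The polysome-associated mRNA of Amd1 (−0.45), Azin1 (−0.46) and Srm (−0.49) was also called lower on library totals, and that of Sms turned from 0.08 to −0.27. Amd1 was thus called lower in both RNA types on that scale (−0.76 in total mRNA). Odc1, Arg2, Sat1 and Smox stayed called higher on either scale, with changes of 3.05, 2.37, 1.55 and 1.57 in total mRNA on library totals.

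Torin1 lowered Amd1 and Srm, did not move Odc1 past the test and raised Arg2 further. The comparison with LPS shares its LPS libraries with the comparison above, so their values are set side by side only. In total mRNA 1 of the 10 genes was higher with LPS and torin1 than with LPS (27.3% of all genes) and 5 were lower (26.4%). In polysome-associated mRNA 1 was higher (20.3%) and 2 were lower (18.2%). The medians over the 10 genes were −0.19 and −0.14, beside 0.00 and 0.00 over all genes.

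Odc1 was at 1995, 3527 and 2592 CPM in total mRNA with LPS and torin1, which overlapped the 2283, 3626 and 2530 of LPS alone. Its change was −0.06 ± 0.22 in total and 0.08 ± 0.24 in polysome-associated mRNA (edgeR, adjusted p = 0.874 and 0.857). The 1.96 SE interval of the total mRNA change ran from −0.49 to 0.38, so this fit, which has no experiment block, could not detect smaller effects. Within experiments 1 to 3 the changes were −0.19, −0.04 and 0.03 in total and −0.04, 0.06 and 0.12 in polysome-associated mRNA. With the experiment as a block the total mRNA change was −0.06 and again did not pass (edgeR, adjusted p = 0.678).

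Srm showed the clearest decrease. Its total mRNA was at 78.2, 71.1 and 65.6 CPM with LPS and torin1, below the 115, 148 and 156 of LPS alone, and its polysome-associated mRNA was at 129.1, 132 and 100.6, below 271, 306 and 252. The changes were −0.96 ± 0.13 (edgeR, adjusted p = 0.000673) and −1.17 ± 0.18 (adjusted p = 0.00272). Amd1 fell to 33.5, 29.7 and 30.7 in total and to 42.2, 26.7 and 38.0 in polysome-associated mRNA, again clear of LPS alone, with changes of −0.88 ± 0.11 (adjusted p = 0.000557) and −0.81 ± 0.20 (adjusted p = 0.0255). Without experiment 3 the polysome-associated change of Amd1 kept its size (−0.79) but not its call (adjusted p = 0.261). Sms was called lower by a small margin in total mRNA alone (−0.18 ± 0.11, adjusted p = 0.234), a call lost on leaving out any of the 3 experiments.

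Arg2 moved the other way. It was at 29.4, 29.9 and 33.8 CPM in total and at 40.4, 27.9 and 38.8 in polysome-associated mRNA with LPS and torin1, above all LPS libraries, with changes of 1.87 ± 0.27 (edgeR, adjusted p = 0.000961) and 1.98 ± 0.32 (adjusted p = 0.00338). Against control cells its change was 4.61 ± 0.31 in total and 5.29 ± 0.37 in polysome-associated mRNA (adjusted p = 2.15e-06 and 5.77e-06).

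Sat1 and Smox were lower in every experiment with torin1 than without, but their ranges overlapped. Sat1 in total mRNA was at 180, 249 and 192 CPM (−0.58 ± 0.18, edgeR, adjusted p = 0.0351), and its polysome-associated mRNA, at 277, 414 and 260, changed by −0.53 ± 0.32 without passing the test (adjusted p = 0.298). With the experiment as a block this change of Sat1 was called (−0.50, adjusted p = 0.0540). Smox in total mRNA was at 120, 146 and 120 (−0.24 ± 0.13, adjusted p = 0.181), a call lost without experiment 1 (adjusted p = 0.316) or 3 (adjusted p = 0.492), and its polysome-associated mRNA changed by −0.37 ± 0.27 (adjusted p = 0.394). Without experiment 2 the polysome-associated mRNA of both was called lower, Sat1 by −0.49 (adjusted p = 0.138) and Smox by −0.65 (adjusted p = 0.0537).

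The antizymes and Azin1 gave no call between LPS with torin1 and LPS. Oaz1 changed by −0.03 ± 0.18 in total and −0.15 ± 0.44 in polysome-associated mRNA, where the values with LPS and torin1 were 181, 489 and 159. Without experiment 2 the polysome-associated change was −0.44 and was called (edgeR, adjusted p = 0.208). Oaz2 changed by −0.20 ± 0.16 in total mRNA (adjusted p = 0.391), and with the experiment as a block this was called lower (−0.19, adjusted p = 0.226). Azin1 changed by −0.10 ± 0.15 in total and 0.06 ± 0.19 in polysome-associated mRNA.

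Against control cells, 5 of the 10 genes were higher in total mRNA with LPS and torin1 (33.1% of all genes) and 3 were lower (33.6%), and in polysome-associated mRNA 4 were higher (28.5%) and 2 lower (29.7%). Odc1 remained high at 3.36 ± 0.24 in total and 3.63 ± 0.26 in polysome-associated mRNA (edgeR, adjusted p = 3.21e-06 and 6.25e-06). Amd1 was at −1.27 ± 0.11 and −0.90 ± 0.20, and Srm at −1.02 ± 0.13 and −1.31 ± 0.18 (all 4 called). Sat1 was at 1.34 ± 0.18 and 1.57 ± 0.33, and Smox at 1.69 ± 0.13 and 1.51 ± 0.28. The remaining calls in total mRNA, Oaz2 (0.27, adjusted p = 0.197) and Sms (−0.21, adjusted p = 0.125), were small, and leaving out any experiment for Oaz2, or experiment 1 or 2 for Sms, ended them. On library totals Oaz2 turned to −0.03, and of the genes called 26.4% were higher in total and 27.0% in polysome-associated mRNA, against 49.6% and 48.9% with TMM. With the experiment as a block the polysome-associated Oaz2 was called higher (0.32, adjusted p = 0.119 against 0.313). With the same block Azin1 was called lower in total mRNA (−0.21, adjusted p = 0.127 against 0.263), as it was without experiment 1 (−0.23, adjusted p = 0.189). Without experiment 2 the polysome-associated Oaz1 was lower by 0.94 on the log2 scale (−0.94, adjusted p = 0.00940), against −0.15 with all libraries.

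**Figure D3:**
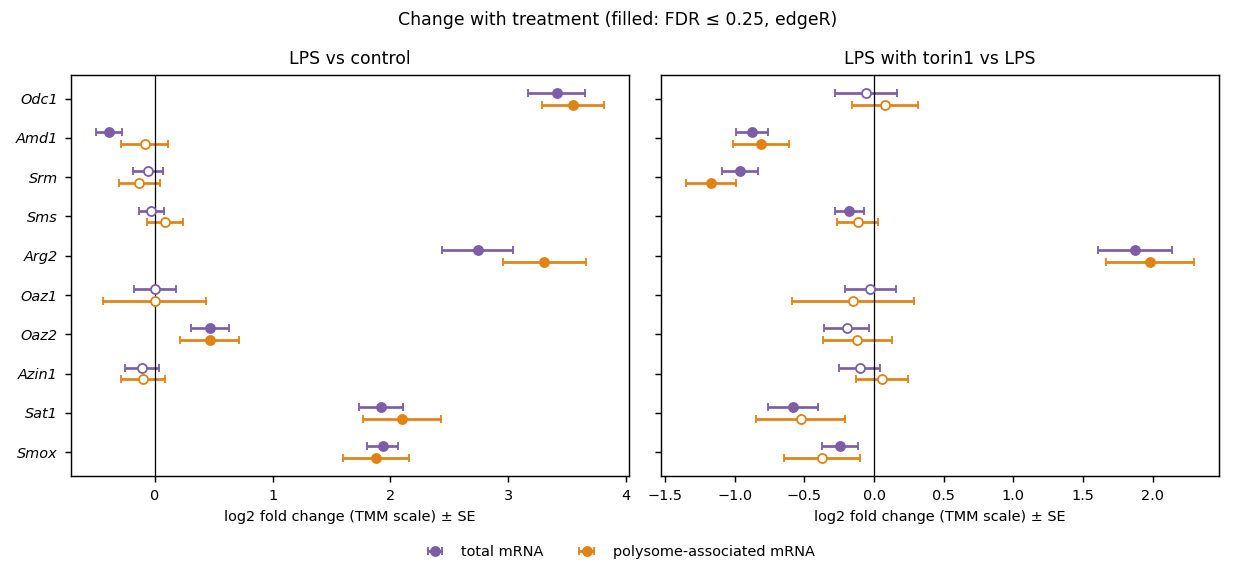
Log2 fold changes on the TMM scale with standard errors for LPS against control (left) and LPS with torin1 against LPS (right), in total (purple) and polysome-associated mRNA (orange); filled points passed an FDR of 0.25. Odc1 was raised by 3.41 and 3.55 with LPS and did not pass the test for torin1, Arg2 was raised in both comparisons, and Srm and Amd1 were lowered in the right panel.

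The 10 genes differed widely in how much of their mRNA was found on heavy polysomes. The ratio of polysome-associated to total mRNA is relative to the average mRNA, since both library types are scaled to the same size. In control cells 5 of the 10 genes were higher on polysomes (34.3% of all genes at an FDR of 0.25 and a fold of at least 1.2) and 2 were lower (31.1%). With LPS 6 were higher (32.3%) and 1 was lower (29.1%), and with LPS and torin1 6 were higher (26.1%) and 0 were lower (26.3%).

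Oaz1 was the highest of the 10, with log2 ratios of 1.44, 1.40 and 1.35 in the 3 control lysates, a fit of 1.40 ± 0.37 (SE, edgeR, adjusted p = 0.00591). With LPS its ratios were 1.63, 1.59 and 0.72, and with LPS and torin1 0.70, 1.86 and 0.61. The control lysates thus lay close together and the stimulated ones did not, although Oaz1 was called higher on polysomes in every treatment. Oaz2, with the same kind of frameshift site, had ratios of 0.57, 0.73 and 0.70 in control lysates (0.67 ± 0.22, adjusted p = 0.0181), 0.41, 1.01 and 0.47 with LPS, and 0.49, 0.99 and 0.59 with LPS and torin1. For both antizymes the ratio in experiment 2 exceeded that in experiment 3 in all 3 treatments. Association with polysomes does not tell whether ribosomes read the first frame alone or the full antizyme.

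Srm was at 1.22, 1.01 and 0.92 in control lysates (1.06 ± 0.15, edgeR, adjusted p = 0.000120), at 1.24, 1.05 and 0.69 with LPS, and at 0.72, 0.90 and 0.62 with LPS and torin1. Smox was at 1.07, 0.78 and 0.78 in control lysates (0.89 ± 0.22, adjusted p = 0.00428) and was also called in the other treatments (0.84 and 0.68). Sat1 was called higher in every treatment (0.41, 0.58 and 0.61), but in control lysates its ratios ran from 0.05 to 0.70 and the call (adjusted p = 0.230) was lost on leaving out any experiment. Its calls with LPS and with LPS and torin1 were lost without experiment 1 (adjusted p = 0.290 and 0.283). Fitted with the lysate as a block, Sat1 was called higher in every treatment (edgeR, adjusted p = 0.0201, 0.00211 and 0.00152).

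Odc1 had the most even ratios. They were 0.29, 0.24 and 0.22 in control lysates, 0.39, 0.38 and 0.37 with LPS, and 0.55, 0.48 and 0.46 with LPS and torin1. The fitted ratio was not called in control cells (0.25 ± 0.24, edgeR, adjusted p = 0.405) and was called with LPS (0.38, adjusted p = 0.207) and with LPS and torin1 (0.49, adjusted p = 0.127). The call with LPS was lost without experiment 1 (adjusted p = 0.353) or 3 (adjusted p = 0.429), and the call with LPS and torin1 without experiment 3 (adjusted p = 0.343). With the lysate as a block the 3 adjusted p were 0.0333, 0.00328 and 0.000778, the first with a ratio under the fold of 1.2.

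Azin1 and Sms lay below the average mRNA in control cells, at −0.32 ± 0.18 (edgeR, adjusted p = 0.144) and −0.31 ± 0.12 (adjusted p = 0.0442). All 9 lysates of each had a ratio under 0, from −0.50 to −0.04 for Azin1 and from −0.63 to −0.06 for Sms. Neither passed in cells with LPS and torin1, and with LPS Azin1 alone was called (−0.31, adjusted p = 0.172), a call lost on leaving out any experiment. In control cells the call of Sms was lost without experiment 1 (−0.16, adjusted p = 0.475) and that of Azin1 without experiment 1 or 3 (adjusted p = 0.354 and 0.301). Fitted with the lysate as a block, Azin1 was called lower in control cells and with LPS (edgeR, adjusted p = 0.0167 and 0.0246). Sms was called by that fit in control cells only (adjusted p = 0.01565). Amd1 was close to the average mRNA in every treatment (−0.16, 0.14 and 0.19, none called). Without experiment 2 its ratio with LPS and torin1 was called at 0.32 (adjusted p = 0.140). Arg2 was not called, at −0.45 ± 0.37 in control cells (adjusted p = 0.337), 0.12 with LPS and 0.20 with LPS and torin1. With the lysate as a block, and also without experiment 1, its control ratio was called lower (−0.43 and −0.48, adjusted p = 0.0618 and 0.198). These control values rest on 36 to 69 reads per library.

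The ratios in control cells were also set beside the upstream ATG triplets. The 5 genes without one had a median log2 ratio of 0.89, and the 5 genes with one had a median of −0.16. The members did not split cleanly: Arg2 has no upstream ATG and had the lowest fitted ratio of the 10 (−0.45), and Odc1 (0.25) and Sat1 (0.41) have upstream ATGs and ratios above 0. Over the table, 5086 genes without an upstream ATG had a median of 0.04 (quartiles −0.43 and 0.53) and 5471 genes with one had a median of 0.02 (quartiles −0.44 and 0.54). Transcript length moved with it: the median length was 1428 bases in the 5 genes without an upstream ATG and 3204 in the 5 with one. The part of either in the ratios was not tested.

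**Figure D4:**
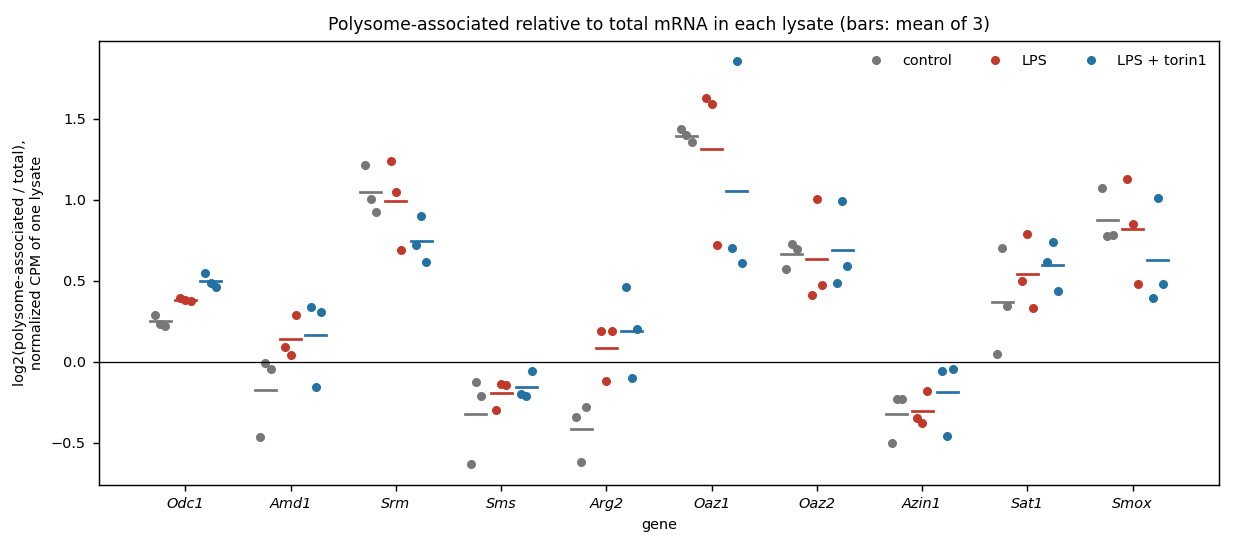
Log2 ratio of polysome-associated to total normalized CPM of each lysate for the 10 genes, by treatment; points are the 3 lysates of a treatment and bars their means, and 0 is the average mRNA. The Odc1 lysates form a narrow band at each treatment (0.22 to 0.29, 0.37 to 0.39 and 0.46 to 0.55), while the Oaz1 lysates spread from 0.61 to 1.86 after stimulation.

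Whether translation efficiency, the polysome-associated amount relative to total mRNA, changed with treatment was tested as an interaction. None of the 10 genes was called in any of the 3 comparisons, and the same held for the whole table (0% of all genes in each, edgeR at an FDR of 0.25, with 44, 110 and 145 genes at an unadjusted p under 0.05 and none of the 10 among them). DESeq2 called 1, 7 and 1 of all genes, edgeR with the lysate as a block 0, 25 and 3, and an analysis of partial variance 10, 21 and 13, and none of the 10 genes was called by these either. The study, using anota2seq at the same FDR, reported a subset of mRNAs with altered translation efficiency after LPS. The lack of calls over the whole table thus holds for the test used here on all libraries. Without experiment 2 the same test called 430 of all genes for torin1 with LPS against control, and none of the 10 genes was among them. For Odc1 the difference between the changes in polysome-associated and total mRNA was 0.14 (interval of 1.96 SE from −0.53 to 0.80) for LPS against control and 0.11 (−0.55 to 0.77) for torin1 with LPS against LPS. These intervals come from the model without the lysate as a block and are wide beside the experiments' own differences, which were 0.11, 0.15 and 0.15 for LPS against control and 0.15, 0.10 and 0.09 for torin1 with LPS against LPS, all above 0. With the lysate as a block the unadjusted p for Odc1 was 0.333 and 0.405. Over the 10 genes the fitted differences for torin1 with LPS against LPS ran from −0.23 (Srm, interval −0.65 to 0.19) to 0.13 (Azin1, −0.35 to 0.62), and the interval of Oaz1 ran from −1.16 to 0.86.

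The ratios were also compared lysate by lysate. The Odc1 ratio with LPS was above that of control cells in every lysate, as were those of Amd1 and Arg2, so that 3 of the 10 genes had groups that did not overlap in the upward direction, beside 3.47% of all genes, and none in the downward direction, beside 3.01%. With LPS and torin1 against LPS this held for Odc1 alone (1.43% of all genes) and for none downward (4.54%), and against control cells for Odc1 and Arg2 (2.66%), while Srm was lower without overlap (6.79%). With 3 lysates against 3 an exact two-sided permutation test cannot go below p = 0.1, and groups that do not overlap take that value by construction, so these 7 cases are a description. The mean difference of Odc1 was 0.13 for LPS against control, 0.12 for torin1 with LPS against LPS and 0.25 for torin1 with LPS against control. That of Amd1 was 0.31 for LPS against control, that of Arg2 was 0.50 for LPS and 0.60 for LPS and torin1 against control, and that of Srm was −0.30 for LPS and torin1 against control. By the fit with the lysate as a block, Arg2 had unadjusted p of 0.0435 and 0.0172 for these differences, which became 1.00 and 0.659 after adjustment over all genes.

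Ribosomal protein genes, a class whose translation is known to depend on mTOR, had a median change in efficiency of −0.58 over 76 genes with torin1 and LPS against LPS. The difference between this list and the polyamine genes was not tested.

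The balance of Odc1 to its antizyme can be read within each library, where no scaling between libraries enters. The size of this balance depends on the exon lengths used, 3405 bases for Odc1 and 2558 for Oaz1. The principal transcripts have 2208 and 1045 bases. Its fold change between treatments does not depend on these lengths. In total mRNA the ratio of Odc1 to Oaz1 in CPM per kilobase was 1.69 ± 0.35 (SD, n = 3) in control cells, and LPS brought it to 17.8 ± 0.38, or 17.2 ± 3.3 when torin1 was present. In polysome-associated mRNA it was 0.762 ± 0.16, 9.72 ± 3.5 and 12.2 ± 4.6. The lowest ratio with LPS (17.6 in total, 7.57 in polysome-associated mRNA) lay far above the highest in control cells (2.04 and 0.910). The ratio of Azin1 to Oaz1 in total mRNA was 0.834 ± 0.12, 0.823 ± 0.36 and 0.737 ± 0.11, with ranges that overlapped.

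Of 24 other polyamine genes listed by role, 18 were counted. With LPS 5 were higher and 6 lower in total mRNA, beside 32.2% and 34.3% of all genes, and 4 higher and 5 lower in polysome-associated mRNA, beside 26.4% and 28.7%, which is near the share over all genes. With torin1 and LPS against LPS 3 were higher and 8 lower in total mRNA, beside 27.3% and 26.4%, and 1 higher and 5 lower in polysome-associated mRNA, beside 20.3% and 18.2%. None had a called change in efficiency in either comparison.

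Precursor supply and methionine salvage, which recycles the by-product of aminopropyl transfer, had 8 counted genes, of which 5 were lower and 1 higher with LPS in total mRNA (34.3% and 32.2% of all genes), and 4 lower and 0 higher in polysome-associated mRNA (28.7% and 26.4%). Mri1, an isomerase of the salvage pathway, fell from a mean of 21.2 ± 2.3 CPM (SD, n = 3) to 10.7 ± 2.9 (−0.98 ± 0.19, edgeR, adjusted p = 0.00172), and in polysome-associated mRNA by 1.14 on the log2 scale (adjusted p = 0.00429). Adi1, the dioxygenase of the same pathway, fell from 20.4 ± 1.4 to 11.96 ± 1.7 (−0.77 ± 0.15, adjusted p = 0.00157).

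Of the 3 counted genes for catabolism and other antizyme partners, Paox, the oxidase of acetylated polyamines, was lower with LPS in total mRNA (2.70 ± 0.54 to 1.40 ± 0.29 CPM, change −0.94 ± 0.24, edgeR, adjusted p = 0.00889). The lowest of these LPS libraries held 40 reads of Paox. Its polysome-associated mRNA changed by −0.39 ± 0.26 with LPS and was not called (adjusted p = 0.275). Azin2, a second antizyme inhibitor, was near the limit of counting (5 to 27 reads in the lowest library of a group). Its total mRNA was higher with LPS and torin1 than with LPS (1.26 ± 0.38, adjusted p = 0.0297), and its polysome-associated mRNA changed by 0.05 ± 0.56.

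The genes for hypusination, the modification of a translation factor that consumes spermidine, included 2 of 3 that rose with LPS in both RNA types, beside 32.2% of all genes in total and 26.4% in polysome-associated mRNA. Eif5a, the factor that is modified, went from 904 ± 16 to 1185 ± 87 CPM in total mRNA (0.39 ± 0.09, edgeR, adjusted p = 0.00670), and to 912 ± 1.6 with LPS and torin1 (−0.38 ± 0.09 against LPS, adjusted p = 0.0140). On library totals the change of Eif5a with LPS was 0.03, and it is read as a change relative to the typical gene. Dhps, the deoxyhypusine synthase, changed by 0.61 ± 0.11 in total and 0.75 ± 0.19 in polysome-associated mRNA with LPS (adjusted p = 0.00153 and 0.0136). Dhps overlaps Wdr83 on the other strand. All 3 counted hypusination genes were called higher on polysomes than in total mRNA in every treatment, a call made for 34.3%, 32.3% and 26.1% of all genes in control cells, LPS, and LPS with torin1, and with 3 genes this is a description.

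Of 4 counted transport genes, Slc3a2, the heavy chain of amino acid transporters, rose with LPS from 148 ± 15 to 328 ± 44 CPM in total mRNA (1.15 ± 0.15, edgeR, adjusted p = 0.000148) and by 0.99 ± 0.21 in polysome-associated mRNA (adjusted p = 0.00464). Atp13a2, a lysosomal polyamine exporter, had a change of −0.43 ± 0.35 in total (adjusted p = 0.335) and −0.87 ± 0.46 in polysome-associated mRNA (adjusted p = 0.181), the latter called lower.

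The genes whose log2 CPM followed Odc1 most closely over the 18 libraries were Ccl2, Marcksl1 and Csf3, with Pearson correlations of 0.994, 0.994 and 0.992. These are descriptions across libraries that share lysates and treatments. Their total mRNA changed by 5.90, 3.63 and 9.53 on the log2 scale with LPS, against 3.41 for Odc1.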

How the data were processed

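Per the labels and the methods of the study, RNA was sequenced as ribosomal-depleted, stranded, paired-end libraries, and the authors aligned reads to GRCm38 with Hisat2, counted them on Ensembl genes with featureCounts, kept protein-coding genes and dropped genes with 0 counts in any sample. The deposited values are raw counts per gene for 18 libraries (27800983 to 47725557 counts each). Dropping genes with 0 counts removes genes that are silent in 1 treatment. The pipeline was run with default settings and no source used here states that the counting used strand, so reads of genes that overlap on opposite strands (here Arg2, Azin1, Azin2, Dhps and Paox) may not be told apart. Oaz1, Oaz2 and Sms each have 1 annotated pseudogene.

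Total and polysome-associated mRNA were each fitted over their 9 libraries with edgeR 4.0.16 (R 4.3.3; quasi-likelihood test, TMM), and p-values were adjusted by Benjamini-Hochberg over all 11243 genes. A gene was called at an FDR of at most 0.25, the threshold of the study's methods. Translation efficiency (the interaction of RNA type and treatment) and the polysome to total ratio came from 1 model of 6 groups over 18 libraries and also needed a fold of at least 1.2. An efficiency analysis of partial variance used limma 3.58.1, and DESeq2 1.42.0 served as another tool. The study itself used anota2seq. Steps were tested on simulated data.

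Replicate numbers mark experiments. In total mRNA, deviations from group means correlated in all 9 same-number pairs (r of 0.127 to 0.540), so the numbers pair these lysates, whose polysome-associated libraries carry the same numbers (r of −0.141 to 0.843), and total and polysome-associated mRNA of a lysate are matched by design. Blocked values are given where they changed a call. Libraries of a group differed well beyond sampling noise (chi-square per degree of freedom of at least 26.3), so none was counted as a duplicate.

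The 10 genes are named in full. From 24 further polyamine genes, those called between LPS and control or between LPS with torin1 and LPS with the 2 largest changes in each role are named. Ribosomal protein genes are given as a median, and the 3 genes most alike to Odc1 by Pearson correlation are named. The members and lists were chosen with earlier results of these data known. Alternatives were DESeq2, other size factors, library totals (added after seeing the data), a minimum of 10 counts, an FDR of 0.05, no minimum fold, other sets of libraries, blocks, and leaving out each experiment. Levels per length use exon length from the GENCODE annotation of GRCm38.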

Additional observations from a re-analysis of the deposited data

How the results depend on the processing

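Of 1410 values for single genes under the alternatives, 1309 kept their side of the threshold (49 of these, none called, changed sign), 49 lost a call and 48 gained one. The other 4 changed sign and were called in at least 1 of the 2 settings compared. These 4 came from library totals in place of TMM: Oaz2 in total mRNA with LPS and torin1 against control went from 0.27 to −0.026 (−0.025 with the replicate block as well), and Sms in polysome-associated mRNA with LPS against control from 0.08 to −0.27 (−0.27). On library totals without the block, Oaz2 was no longer called (edgeR, adjusted p = 0.896). Sms was not called with TMM (edgeR, adjusted p = 0.708) and was called on library totals (adjusted p = 0.172 without the block). Library totals also moved the count of the 10 genes called in polysome-associated mRNA with LPS from 5 to 8, and to 9 with the replicate block. Over all 11243 genes, library totals without the block called 1539 higher and 6101 lower, against 2965 and 3226 with TMM. The other counts of the 10 genes in this paragraph are a description, as a share over all genes is not given for each setting. For polysome-associated mRNA with torin1 and LPS against LPS the count of 3 became 5 in 1 model over 18 libraries, and 2 to 6 on leaving out each experiment. Over all genes the calls of that comparison fell from 4322 to 1782 without experiment 1 and to 1187 without experiment 3. For polysome-associated against total mRNA with LPS the count of 7 became 4 at an FDR of 0.05, and 4 to 6 on leaving out each experiment. At the main setting 32.3% of all genes were higher and 29.1% lower in that ratio. The causes were not tested.

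Over all genes an FDR of 0.05 left 3279 of 6038 calls for total mRNA with torin1 and LPS against LPS, 3654 of 6191, 1557 of 4322 and 3950 of 6546 for polysome-associated mRNA in LPS against control, torin1 with LPS against LPS and torin1 with LPS against control, and 3478 of 5892 for the polysome to total ratio with LPS and torin1. Leaving out 1 experiment, which leaves fewer libraries, lowered these counts to 3959 (total mRNA, torin1 with LPS against LPS, without experiment 3), 3901 (polysome, LPS against control, without experiment 1), 1782 and 1187 (polysome, torin1 with LPS against LPS, without experiment 1 and 3) and 4156 (polysome, torin1 with LPS against control, without experiment 3). For efficiency, torin1 with LPS against control, 0 calls became 430 without experiment 2.

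In polysome-associated mRNA the same-number pairs correlated at −0.141 to 0.843 and 7 of 9 libraries were closest to their own number, a looser pairing than in total mRNA of the same lysates. The replicate block called Sat1 lower with torin1 and LPS against LPS (−0.50, adjusted p = 0.0540, edgeR) and Oaz2 higher with LPS and torin1 against control (0.32, adjusted p = 0.119), beside the calls changed for Oaz2 and Azin1 in total mRNA and Arg2 in the ratio of control cells, and changed no other call of the 10 genes. Arg2 in control cells (36 to 69 reads in total mRNA) was the gene most limited by depth.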
